A study of Mus musculus with 12 samples.

Results

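Integrins and CD44 are the surface receptors with which T cells hold on to other cells and to the matrix, and 10 of their genes were followed here in regulatory T cells (Tregs) of Gclc mutant and wild type (WT) mice. The genes were chosen by name, integrin chains of T cells together with CD44: Itgae, Itgb7, Itga4, Itgb1, Itgal, Itgb2, Itgav, Itgb3, Itga6 and Cd44. They are 10 of 49671 genes in the count files, and all 10 passed the filter on low counts together with 17977 genes in all. The data were RNA-seq counts from 12 libraries in 4 groups of 3. Induced Tregs (iTregs) came from Gclc mutant and from WT mice, and so did sorted Tregs, named nTregs in the sample titles (mutant libraries 1, 2 and 4 and WT libraries 1, 2 and 3 of each kind of cell). All mice were C57BL/6 and 8 weeks old. The genotype label is Gclc mutant, and the promoter or cell type that drives the mutation is not given in the sources used here. No label says whether the 3 libraries of a group came from separate mice or cultures, and each p-value therefore reflects only how these libraries vary, which may be technical variation. Induced and sorted cells differ in the labels by their source as well as by their kind, and the effects of both cannot be told apart.

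An integrin is a pair of an alpha and a beta chain, and the chains reach the surface as a pair, so that a beta chain with several partners is shared among receptors. On T cells, Itgal pairs with Itgb2 to form LFA-1, which binds ICAMs on other cells, and Itga4 pairs with Itgb7 for gut homing or with Itgb1 to bind VCAM-1 and fibronectin. Itgae (CD103) pairs with Itgb7 and binds E-cadherin on epithelium, Itga6 pairs with Itgb1 and binds laminins, and Itgav pairs with several beta chains, some of which release active TGF-beta. CD44 is no integrin. It binds hyaluronan, and T cells that have met antigen carry more of it.

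The libraries held between 28707579 and 39886130 counted reads. Gclc, which encodes the catalytic subunit of the enzyme that starts glutathione synthesis, stood at 18.8, 21 and 19 CPM (counts scaled by TMM library size) in the iTreg mutant libraries, against 56.5, 53.2 and 51.9 CPM in iTreg WT. In nTregs it stood at 45.8, 41.7 and 43.2 CPM in mutant libraries and at 78.7, 79 and 70.8 CPM in WT. Reads of Gclc thus remained in the mutant libraries of both kinds. Which exons these reads cover and which cells they came from was not analysed here. Foxp3, the lineage factor of Tregs, was present in every library and lower in mutants, between 75.5 and 107 CPM in iTreg mutants against 287 to 300 CPM in iTreg WT, and between 135 and 217 CPM in nTreg mutants against 559 to 610 CPM in nTreg WT. The summed level of 12 CD8 T and NK cell markers was 1660 CPM in nTreg mutant library 1, 220 and 186 CPM in the other nTreg mutants, and 72.6 to 85.9 CPM in nTreg WT. Of these 12 genes, 10 were called higher in nTreg mutants than in nTreg WT (edgeR, adjusted p under 0.05), as were 19.3% of all genes tested. In iTregs the sum was 59 to 89.3 CPM in mutants and 37.9 to 56.9 CPM in WT. There 0 of the 12 genes were called higher and 0 lower in mutants, where 25.4% of all genes tested were called. Summed B cell markers lay at 203 to 448 CPM in nTreg mutants and 323 to 505 CPM in nTreg WT, but at 2.48 to 3.68 CPM over all iTreg libraries. In bulk libraries such as these, fewer cells of a type and less RNA per cell cannot be told apart.

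The promoters of 5 of the 10 genes are in the RefSeq table used here (build GRCm38.p6), as 250 bases before and 50 after the gene start. The 4 shown belong to Itgb1 and Cd44, which were higher in mutants, and to Itgb7 and Itga4, which were lower, each in at least 1 kind of Treg. The windows are chr8:128685404-128685703 on the plus strand for Itgb1, chr2:102901616-102901915 on the minus strand for Cd44, chr15:102231886-102232185 on the minus strand for Itgb7 and chr2:79255176-79255475 on the plus strand for Itga4, each read 5′ to 3′. Capitals mark matches to any of 6 short motifs searched on both strands.
Itgb1: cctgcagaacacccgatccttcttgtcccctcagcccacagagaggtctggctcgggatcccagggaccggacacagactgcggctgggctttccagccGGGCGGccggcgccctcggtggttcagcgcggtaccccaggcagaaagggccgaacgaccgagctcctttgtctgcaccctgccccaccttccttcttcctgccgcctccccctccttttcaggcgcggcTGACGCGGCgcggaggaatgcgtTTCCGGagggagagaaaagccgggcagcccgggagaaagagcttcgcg
Cd44: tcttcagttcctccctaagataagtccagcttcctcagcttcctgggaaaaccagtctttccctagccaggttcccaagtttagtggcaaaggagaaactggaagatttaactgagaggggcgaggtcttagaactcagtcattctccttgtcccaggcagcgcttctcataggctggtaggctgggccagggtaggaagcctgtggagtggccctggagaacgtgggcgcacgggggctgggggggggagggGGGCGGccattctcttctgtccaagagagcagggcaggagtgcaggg
Itgb7: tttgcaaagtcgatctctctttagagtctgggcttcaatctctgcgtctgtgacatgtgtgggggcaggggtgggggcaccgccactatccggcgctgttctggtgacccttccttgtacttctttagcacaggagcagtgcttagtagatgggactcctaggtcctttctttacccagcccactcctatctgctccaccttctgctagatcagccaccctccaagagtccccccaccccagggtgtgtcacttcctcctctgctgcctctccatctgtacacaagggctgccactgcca
Itga4: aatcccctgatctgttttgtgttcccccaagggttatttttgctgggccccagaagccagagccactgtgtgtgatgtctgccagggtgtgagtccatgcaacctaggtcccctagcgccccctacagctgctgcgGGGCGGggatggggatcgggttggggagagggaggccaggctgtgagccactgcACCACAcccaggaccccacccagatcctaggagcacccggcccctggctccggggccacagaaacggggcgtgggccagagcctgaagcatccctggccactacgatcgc

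The motifs searched were an ETS core (CCGGAA), a GC box (GGGCGG), a RUNX motif (TGTGGT), an AP-1 motif (TGANTCA), an antioxidant response element core (TGACNNNGC) and an ATF4 response element core (TGATGNAA), with N for any base. Itgb1 held a GC box, an antioxidant response element core at position -21 from the gene start and an ETS core. Cd44 held a GC box alone, and Itga4 held a GC box and a RUNX match on the minus strand, which reads ACCACA on the plus strand shown. No motif searched matched in Itgb7. Of 32851 promoters of this length in the table, 35.7% held the GC box, 16.8% the RUNX motif, 14.9% the ETS core, 12.4% the antioxidant response element core, 7.81% the AP-1 motif and 3.97% the ATF4 core. These are letter matches and not sites shown to be bound. No letters are shown for Itgav, the fifth gene in the table, whose window held a GC box, nor for Itgae, Itgal, Itgb2, Itgb3 and Itga6.

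Between mutant and WT cells, Itgb1 was the member of the 10 genes that rose in both kinds of Treg, while the laminin-binding alpha chain Itga6 fell in nTregs and was lower in every iTreg mutant library than in any iTreg WT library. Itga4 and Itgb3 fell in nTregs, and Itgb7 and Itgb2 fell in iTregs. Cd44 rose in iTregs, and Itgae rose in nTregs by a margin that single libraries decided. In nTregs 2 of the 10 genes were higher and 3 lower in mutants at an adjusted p under 0.05 (edgeR quasi-likelihood test with Benjamini-Hochberg adjustment over all genes tested), where 34.9% of all genes tested passed, 19.3% higher and 15.6% lower. In iTregs 2 were higher and 2 lower, where 25.4% of all genes tested passed, 14% higher and 11.4% lower. The median log2 change over the 10 genes was -0.17 in iTregs and -0.02 in nTregs, against 0.04 over all genes tested in each, and the median size of the change was 0.42 and 0.28 against 0.25 and 0.29 over all genes. These counts exceed the background shares by fewer than 2 genes, and nothing is read from them. Scaled by library size alone, 35.5% of all genes called in iTregs were higher in mutants, against 55.2% in the reported fit, and in nTregs 65.4%, against 55.4%. None of the called changes in the 10 genes reversed under any scaling, filter or tool tried.

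**Figure D1:**
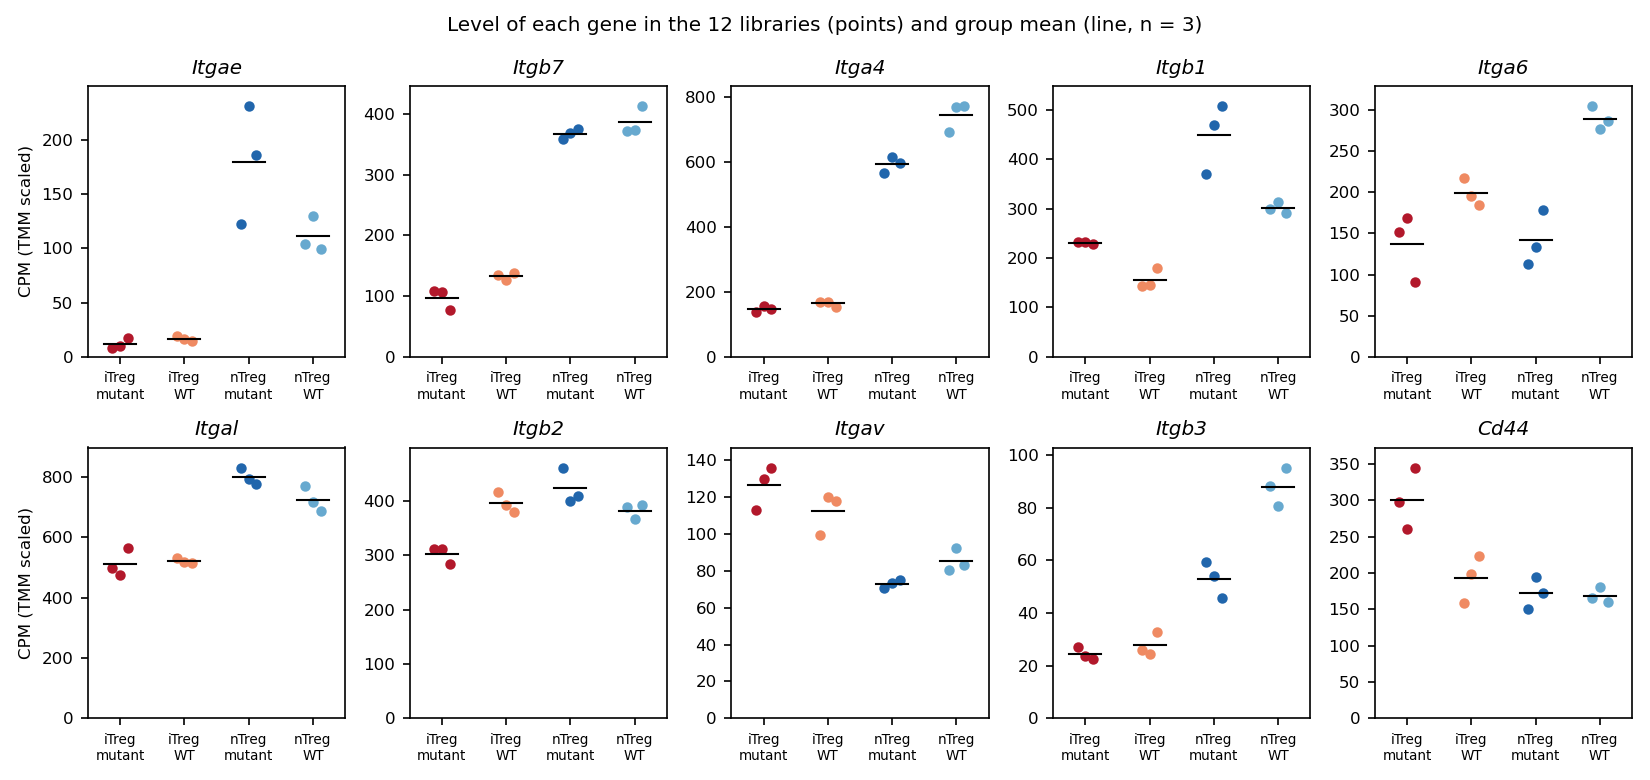
Level of each of the 10 genes in every library, in CPM on a linear axis that starts at 0, with 1 panel per gene; points are libraries and the line is the group mean (n = 3). The Itgb1 points of both mutant groups lie above those of their WT groups, and the Itga6 points lie below them.

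Itgb1 (ENSMUSG00000025809, chromosome 8, 128685654 to 128733200, plus strand, GRCm38) encodes the beta chain that many alpha chains share. It stood at 370, 470 and 508 CPM in nTreg mutants and at 299, 313 and 291 CPM in nTreg WT. In iTregs it stood at 233, 233 and 228 CPM in mutants and at 144, 145 and 180 CPM in WT. Each mutant library lay above every WT library of its kind. The log2 change was 0.56 ± 0.11 in iTregs (SE, adjusted p = 0.00466) and 0.58 ± 0.11 in nTregs (adjusted p = 0.00224), folds of 1.48 and 1.49. The 2 changes differed by -0.01 ± 0.16, with a 95% interval of -0.35 to 0.33. The call held in both kinds of cell under each alternative normalization, filter and tool, and with any single library left out.

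Itga6 (ENSMUSG00000027111, chromosome 2, 71745616 to 71858416, plus strand), the alpha chain of laminin receptors, moved the other way from its partner Itgb1. Its level was 113, 134 and 178 CPM in nTreg mutants, against 305, 277 and 287 CPM in nTreg WT. The change of -1.03 ± 0.20 on the log2 scale (adjusted p = 0.00224) was the largest in size among the 10 genes in nTregs, a level 2.04-fold lower. In iTregs the level was 152, 169 and 90.9 CPM in mutants, against 217, 195 and 185 CPM in WT. These 2 groups did not overlap, yet the log2 change of -0.54 ± 0.20 missed the threshold (adjusted p = 0.0622, 95% interval -0.96 to -0.11), with the lowest value in iTreg mutant 4. It passed under other settings, with an adjusted p of 0.0183 with no filter, 0.0249 by DESeq2, 0.0323 with library size alone, 0.0433 with a stricter filter and 0.0401 with the iTreg libraries fitted alone, and of 0.0205, 0.0405 and 0.0401 without nTreg mutant 1, nTreg mutant 4 and iTreg mutant 2. Over the alternatives the adjusted p ran between 0.0183 and 0.139, and over single libraries left out between 0.0205 and 0.18. The change in iTregs minus that in nTregs was 0.49 ± 0.28 (adjusted p = 0.256), which passed at 0.0337 without iTreg mutant 4, in a range of 0.0337 to 0.507.

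Itga4 (ENSMUSG00000027009, chromosome 2, 79255426 to 79333123, plus strand) encodes the alpha chain shared by the gut homing receptor and VLA-4. In nTregs it stood at 566, 613 and 596 CPM in mutants, all below the 692, 768 and 771 CPM of WT. The log2 change was -0.33 ± 0.07 (adjusted p = 0.00393). In iTregs the mutant libraries had 139, 155 and 146 CPM and the WT libraries 168, 170 and 154 CPM, groups that overlapped by 1 library. The log2 change there was -0.16 ± 0.07 (adjusted p = 0.116, 95% interval -0.31 to -0.01), and it passed at 0.0343 without nTreg mutant 1, in a range of 0.0343 to 0.321 over single libraries left out. It also passed with library size alone (0.0406), a stricter filter (0.0498) and the iTreg libraries fitted alone (0.0405). Exons of Cerkl overlap Itga4 on the opposite strand, and reads were counted by strand.

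Itgb7 (ENSMUSG00000001281, chromosome 15, 102215995 to 102231935, minus strand), the beta chain of the gut homing receptor and of CD103, had 108, 106 and 77.4 CPM in iTreg mutants, all below the 134, 127 and 138 CPM of iTreg WT. It fell by 0.45 ± 0.11 on the log2 scale in iTregs (adjusted p = 0.0105). Its nTreg levels were 358, 368 and 376 CPM in mutants and 372, 373 and 413 CPM in WT, which overlapped. The log2 change in nTregs was -0.07 ± 0.10 (adjusted p = 0.614, 95% interval -0.30 to 0.15). The difference of the 2 changes, -0.38 ± 0.15, did not pass (adjusted p = 0.109).

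Itgae (ENSMUSG00000005947, chromosome 11, 73090583 to 73147446, plus strand) encodes CD103, the alpha chain that marks Tregs of epithelial tissues and partners Itgb7 alone. In nTregs it had 122, 231 and 186 CPM in mutants, against 104, 130 and 99.3 CPM in WT, with mutant 1 below WT 2. The log2 change was 0.69 ± 0.24 (adjusted p = 0.0421). In iTregs the level was far lower, at 8.47, 10.2 and 17.2 CPM in mutants and 18.8, 16.8 and 14.2 CPM in WT, and the groups overlapped through iTreg mutant 4. The log2 change in iTregs was -0.47 ± 0.26 (adjusted p = 0.206, 95% interval -1.05 to 0.10). It was -0.83, with an adjusted p of 0.0341, without iTreg mutant 4. The change in iTregs minus that in nTregs was -1.16 ± 0.36 (adjusted p = 0.0496).

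The rise of Itgae in nTregs depended on single libraries. It was 0.44 with an adjusted p of 0.182 without nTreg mutant 2, and the call was also lost without nTreg mutant 4 (0.0938), without nTreg WT 1, 2 or 3 (0.122, 0.052 and 0.147), and without iTreg mutant 2, iTreg WT 1 or iTreg WT 2 (0.0504, 0.061 and 0.0584), which enter through the shared spread. With single libraries left out the adjusted p ran between 0.00622 and 0.182. The difference between iTregs and nTregs had an adjusted p of 0.00886 to 0.117 over the same set, lost with each library left out in turn except nTreg mutant 1 (0.00886) and iTreg mutant 4 (0.0103). CD103 is also carried by CD8 T cells, whose marker sum was highest in nTreg mutant 1, the nTreg mutant library with the lowest Itgae, and their part in the Itgae levels was not tested. Haspin lies within Itgae on the opposite strand and shares no exon with it.

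Itgb3 (ENSMUSG00000020689, chromosome 11, 104608000 to 104670476, plus strand), a beta chain that Itgav pairs with to bind vitronectin and fibronectin, had 59.4, 54.2 and 45.8 CPM in nTreg mutants, all below the 88.3, 80.6 and 95.3 CPM of nTreg WT. It fell by 0.73 ± 0.12 on the log2 scale in nTregs (adjusted p = 0.00116). In iTregs it had 27, 23.6 and 22.4 CPM in mutants and 26, 24.3 and 32.8 CPM in WT, which overlapped. There the log2 change was -0.19 ± 0.13 (adjusted p = 0.305, 95% interval -0.46 to 0.09). Platelets carry this chain too. The 11 platelet markers summed to 1.42 to 2.4 CPM in nTreg mutants and 1.55 to 1.8 CPM in nTreg WT, with Pf4 at 0 in all 4 groups.

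Itgav (ENSMUSG00000027087, chromosome 2, 83724397 to 83806916, plus strand), the alpha chain of the TGF-beta releasing integrins, had 113, 130 and 136 CPM in iTreg mutants and 99.3, 120 and 118 CPM in iTreg WT. Its nTreg levels were 70.5, 73.2 and 75 CPM in mutants, all below the 80.5, 92.4 and 83 CPM of WT. Neither change passed: the log2 change was 0.17 ± 0.09 in iTregs (adjusted p = 0.179, 95% interval -0.02 to 0.36) and -0.23 ± 0.09 in nTregs (adjusted p = 0.0688, 95% interval -0.42 to -0.03). The nTreg value had an adjusted p of 0.0338 to 0.235 with single libraries left out, and of these passed only without iTreg WT 1. It also passed by DESeq2, at 0.0474. The difference of the 2 changes was 0.40 ± 0.13 (adjusted p = 0.0571).

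The LFA-1 chains were abundant in every library. Itgb2 (ENSMUSG00000000290, chromosome 10, 77530252 to 77565708, plus strand), the beta chain of all leukocyte integrins of this class, had 312, 312 and 283 CPM in iTreg mutants, all below the 416, 393 and 379 CPM of iTreg WT. It fell by 0.39 ± 0.07 on the log2 scale (adjusted p = 0.00371). In nTregs it had 461, 399 and 409 CPM in mutants and 388, 366 and 392 CPM in WT, with each mutant library above every WT library. The log2 change in nTregs was 0.15 ± 0.07 (adjusted p = 0.135, 95% interval -0.01 to 0.30), which passed with library size alone (0.0325). The change in iTregs minus that in nTregs, -0.54 ± 0.10, passed (adjusted p = 0.00789) and held with any single library left out, at 0.00231 to 0.0298.

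Itgal (ENSMUSG00000030830, chromosome 7, 127296260 to 127335138, plus strand), the alpha chain of LFA-1, had 498, 477 and 566 CPM in iTreg mutants and 532, 519 and 514 CPM in iTreg WT, which overlapped. In nTregs it had 832, 794 and 779 CPM in mutants and 771, 718 and 689 CPM in WT, with each mutant library above every WT library. Its log2 change was -0.02 ± 0.07 in iTregs (adjusted p = 0.849, 95% interval -0.18 to 0.14) and 0.14 ± 0.07 in nTregs (adjusted p = 0.151, 95% interval -0.02 to 0.30).

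Cd44 (ENSMUSG00000005087, chromosome 2, 102811141 to 102901665, minus strand) had 297, 261 and 345 CPM in iTreg mutants, all above the 158, 199 and 224 CPM of iTreg WT. It rose by 0.64 ± 0.13 on the log2 scale (adjusted p = 0.00648), a fold of 1.56. In nTregs it had 151, 195 and 173 CPM in mutants and 165, 180 and 160 CPM in WT, which overlapped. The log2 change in nTregs was 0.04 ± 0.13 (adjusted p = 0.842, 95% interval -0.25 to 0.33). The difference of the 2 changes, 0.60 ± 0.19, had an adjusted p of 0.0565, with 0.0238 by DESeq2 and 0.0263 with no filter. With single libraries left out it ran between 0.0362 and 0.13, and was under 0.05 without nTreg mutant 2 (0.0362) and without iTreg WT 3 (0.0368).

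**Figure D2:**
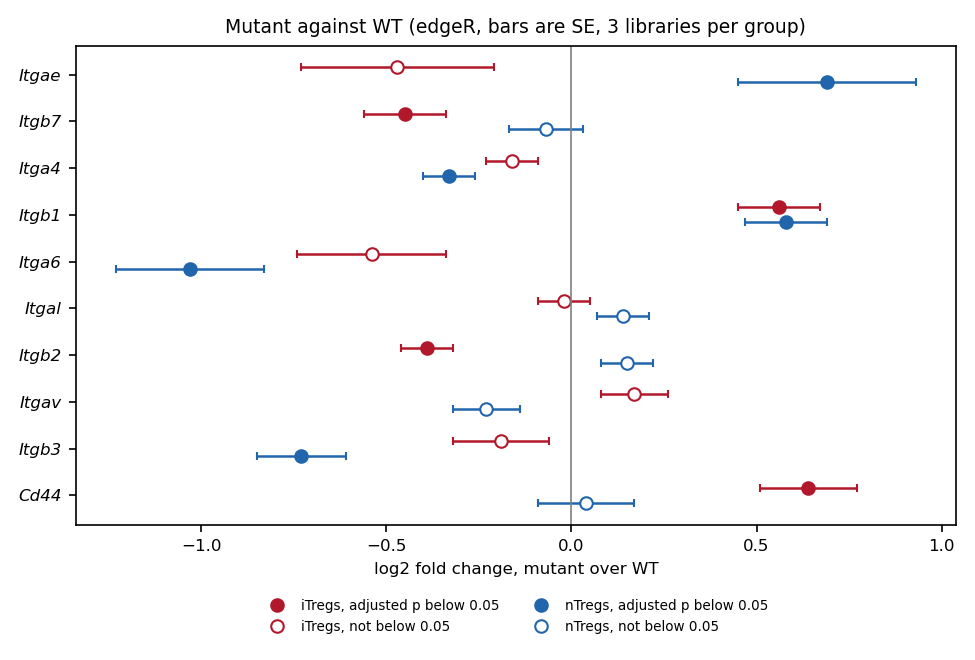
Log2 change of mutant over WT for each of the 10 genes in iTregs and nTregs, with SE bars; filled points have an adjusted p under 0.05. Itgb1 lies at 0.56 in iTregs and 0.58 in nTregs, while Itgb2 and Itgae lie on opposite sides of 0 in the 2 kinds of cell.

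Set side by side, 2 of the 10 genes had changes that differed between iTregs and nTregs, Itgb2 and Itgae, both with the lower value in iTregs; 13.3% of all genes tested had such a difference, 6.12% higher and 7.18% lower in iTregs. The median difference over the 10 genes was 0.08, against -0.00 over all genes. Scaled by library size alone, the median of all genes in this difference was -0.14, so the sign of a small difference rests on the scaling. Of all genes called in this difference, 46% were higher in the reported fit and 17.8% when scaled by library size alone. The differences for Itgb3 (0.54 ± 0.18, adjusted p = 0.0609), Itgav and Itgb7 did not pass. That for Itgb3 passed with RLE scaling (0.048), with no filter (0.0428), by DESeq2 (0.0176), and without nTreg mutant 1 (0.0375) or iTreg WT 3 (0.0262). That for Itgav passed by DESeq2 (0.0294) and without iTreg mutant 1 (0.0441), and that for Itgb7 with library size alone (0.0266) and without nTreg mutant 1 (0.0433). With single libraries left out, the adjusted p ran between 0.0262 and 0.147 for Itgb3, between 0.0441 and 0.145 for Itgav, and between 0.0433 and 0.212 for Itgb7.

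Because a receptor needs both chains, the ratio of each alpha chain to its beta chain was taken per library on levels per kilobase of exon, as a description of transcripts with no test. Itga6 per Itgb1 was 0.259 in iTreg mutants against 0.577 in iTreg WT, and 0.141 in nTreg mutants against 0.435 in nTreg WT (geometric means, n = 3 each). No mutant library reached the lowest WT value of its kind, as the mutants' highest ratios of 0.327 and 0.158 lay under the WT minima of 0.465 and 0.4. Itga4 per Itgb1 was 0.185 in iTreg mutants against 0.307 in iTreg WT, and 0.388 in nTreg mutants against 0.72 in nTreg WT, again with no overlap. Itgb7 per Itgb1, the 2 beta chains that share Itga4, was 0.618 in iTreg mutants against 1.27 in iTreg WT, and 1.23 in nTreg mutants against 1.91 in nTreg WT. Itgav per Itgb1 was 0.207 in iTreg mutants against 0.274 in iTreg WT, and 0.0622 in nTreg mutants against 0.107 in nTreg WT. All 4 ratios have Itgb1 below the line, so they share its rise.

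The remaining pairs do not hold Itgb1. Itga4 per Itgb7 was 0.3 in iTreg mutants against 0.242 in iTreg WT, and 0.316 in nTreg mutants against 0.378 in nTreg WT. Itgae per Itgb7 was 0.0711 in iTreg mutants, between 0.0469 and 0.133, against 0.0744 in iTreg WT. In nTregs it was 0.283 in mutants, between 0.204 and 0.376, against 0.172 in WT, between 0.144 and 0.209. Itgal per Itgb2 was 0.788 in iTreg mutants against 0.613 in iTreg WT, and 0.882 in nTreg mutants against 0.883 in nTreg WT. Itgav per Itgb3 stood above 1 in iTregs, at 2.85 in mutants and 2.24 in WT, and below 1 in nTregs, at 0.757 in mutants and 0.532 in WT.

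**Figure D3:**
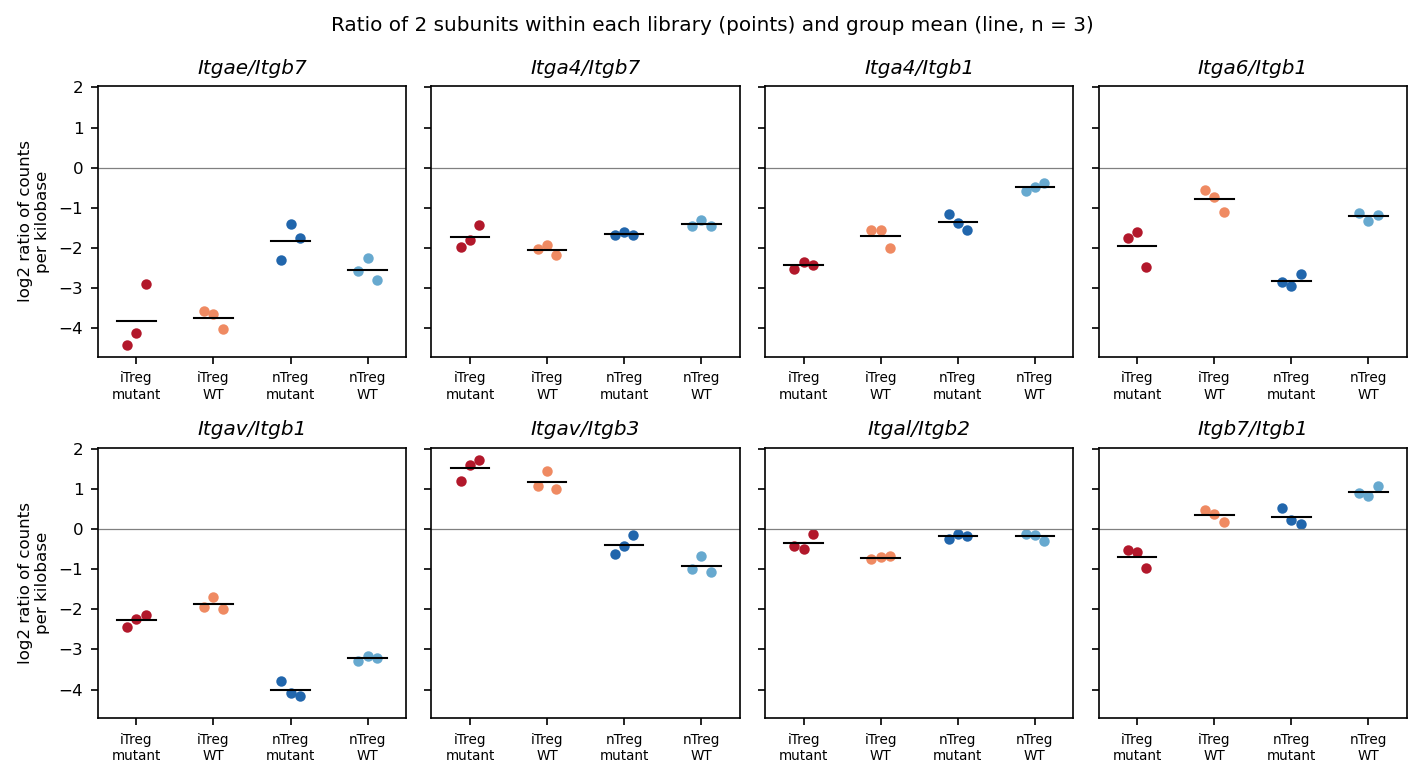
Log2 ratio of partner chains in every library, from levels per kilobase of exon, with points for libraries and a line for the group mean. The 4 panels with Itgb1 below the line, for Itga4, Itga6, Itgav and Itgb7, have mutant points under WT points in both kinds of Treg.

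As shares of the 4 beta chains followed here, again per kilobase, Itgb1 made up 29.1% ± 1.59 in iTreg mutants against 17.3% ± 2.07 in iTreg WT, and 28.1% ± 3.82 in nTreg mutants against 20.8% ± 1.35 in nTreg WT (SD, n = 3 each). Itgb2 was the largest share in iTregs, at 50.8% ± 0.543 in mutants against 58.7% ± 2.84 in WT. In nTregs it was 35.4% ± 3.54 in mutants against 35.3% ± 0.802 in WT. Itgb7 made up 18% ± 2.09 in iTreg mutants against 21.9% ± 0.491 in iTreg WT, and 34.2% ± 0.26 in nTreg mutants against 39.7% ± 1.28 in nTreg WT. Itgb3 was the smallest share, at 2.11% ± 0.133 in iTreg mutants against 2.12% ± 0.313 in iTreg WT, and at 2.31% ± 0.358 in nTreg mutants against 4.2% ± 0.238 in nTreg WT, where the groups did not overlap. The share of Itgb1 was thus higher in each mutant library than in any WT library of its kind.

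Among the 5 alpha chains, Itgal held the largest share in all 4 groups, at 66% ± 3.9 in iTreg mutants, 62.4% ± 0.671 in iTreg WT, 54.1% ± 4.65 in nTreg mutants and 48.5% ± 2.07 in nTreg WT. Itga6 made up 12.9% ± 4.18 in iTreg mutants against 17.3% ± 1.03 in iTreg WT, and 6.93% ± 1.48 in nTreg mutants against 14.1% ± 0.736 in nTreg WT. Itga4 held 18.7% ± 0.258 in nTreg mutants against 23.3% ± 1.78 in nTreg WT, and in iTregs it held 8.89% ± 0.541 in mutants against 9.21% ± 0.317 in WT. Exon lengths are those of all annotated exons of a gene together, so the per-kilobase level of genes with long rarely used exons, such as Itga4 with 13978 bases, reads low.

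**Figure D4:**
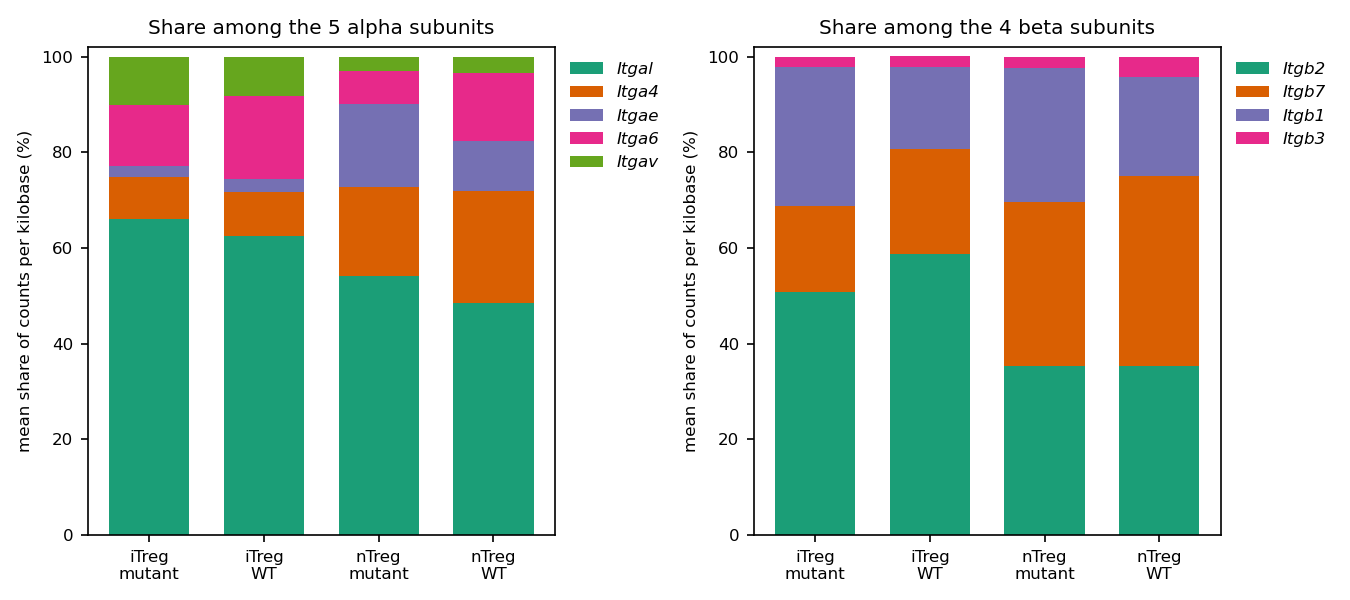
Share of each chain among the 4 beta chains and among the 5 alpha chains per group, in percent of the summed level per kilobase of exon (bars, means of 3 libraries). The Itgb1 share is 29.1% in iTreg mutants and 17.3% in iTreg WT, and 28.1% in nTreg mutants and 20.8% in nTreg WT.

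Induced cells carried less of most of these integrins than sorted cells did. In mutant cells 7 of the 10 genes were lower and 2 higher in iTregs than in nTregs, where 68.2% of all genes tested passed, 35% lower and 33.2% higher. In WT cells 7 were lower and 1 higher, where 69.5% of all genes passed, 35.7% lower and 33.7% higher. The median log2 change over the 10 genes was -0.80 in mutants and -0.74 in WT, against -0.02 over all genes in each, where library size alone put the median of all genes in mutants at -0.20 and left 36% of the called genes higher in iTregs, against 48.7% in the reported fit.

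The 3 genes of the beta7 group, Itgae, Itga4 and Itgb7, had the largest falls in mutants, while in WT Itgb3 lay between Itga4 and Itgb7. The log2 change of iTregs over nTregs in Itgae was -3.91 ± 0.28 in mutants and -2.75 ± 0.26 in WT. It was -2.01 ± 0.07 in mutants and -2.18 ± 0.07 in WT for Itga4, and -1.92 ± 0.11 in mutants and -1.54 ± 0.11 in WT for Itgb7. Per kilobase, Itgb7 stood at 48.4 ± 2.06 CPM in WT iTregs, below Itgb2 and Itgal, but led the order in WT nTregs at 141 ± 8.59 CPM, where Itgb2 at 125 ± 4.52 CPM came next with no overlap. In mutant nTregs Itgb2 at 139 ± 10.9 CPM and Itgb7 at 134 ± 3.29 CPM per kilobase led the order, with ranges that overlapped. Itgae came last of the 10 in both iTreg groups, at 2.61 ± 1.01 CPM per kilobase in mutants and 3.62 ± 0.499 in WT.

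Itgb1 was lower in iTregs too, with log2 changes of -0.96 ± 0.11 in mutants and -0.95 ± 0.11 in WT. The log2 change of Itgb3 was -1.13 ± 0.13 in mutants and -1.67 ± 0.13 in WT, and that of Itgal was -0.64 ± 0.07 in mutants and -0.48 ± 0.07 in WT. Itgb2 had a log2 change of -0.48 ± 0.07 in mutants (adjusted p = 7.44e-05), while in WT it differed by 0.05 ± 0.07 (adjusted p = 0.543, 95% interval -0.11 to 0.21). Itga6 had a log2 change of -0.54 ± 0.20 in WT (adjusted p = 0.0257), a call lost without nTreg WT 1, iTreg WT 2 or iTreg WT 3 (0.0702, 0.0676 and 0.0819, in a range of 0.00354 to 0.0819 over single libraries). In mutants it differed by -0.05 ± 0.20 (adjusted p = 0.841, 95% interval -0.47 to 0.38).

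Itgav and Cd44 ran the other way. Itgav was higher in iTregs by 0.79 ± 0.09 in mutants and 0.40 ± 0.09 in WT. Cd44 was higher in mutant iTregs by 0.80 ± 0.14 (adjusted p = 0.000189), and in WT it differed by 0.20 ± 0.13 (adjusted p = 0.196, 95% interval -0.09 to 0.49), which passed at 0.0445 without iTreg WT 1, in a range of 0.0445 to 0.601 over single libraries left out. Ordered by group, Cd44 was highest in mutant iTregs at 301 ± 42.3 CPM, followed by WT iTregs at 194 ± 33.5 CPM, mutant nTregs at 173 ± 22.2 CPM and WT nTregs at 168 ± 10.3 CPM, and the last 3 overlapped. B cell, myeloid and erythroid markers were near 0 in iTregs and present in nTregs, as given above for B cells. Summed erythroid markers lay at 180 to 904 CPM in nTreg mutants and 111 to 389 CPM in nTreg WT. The CD8 T and NK cell sum was also lower in iTregs, at 59 to 89.3 CPM in mutants against 186 to 1660 CPM in nTreg mutants. In WT it was 37.9 to 56.9 CPM against 72.6 to 85.9 CPM. The part of all these cells in the differences between iTregs and nTregs was not tested.

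**Figure D5:**
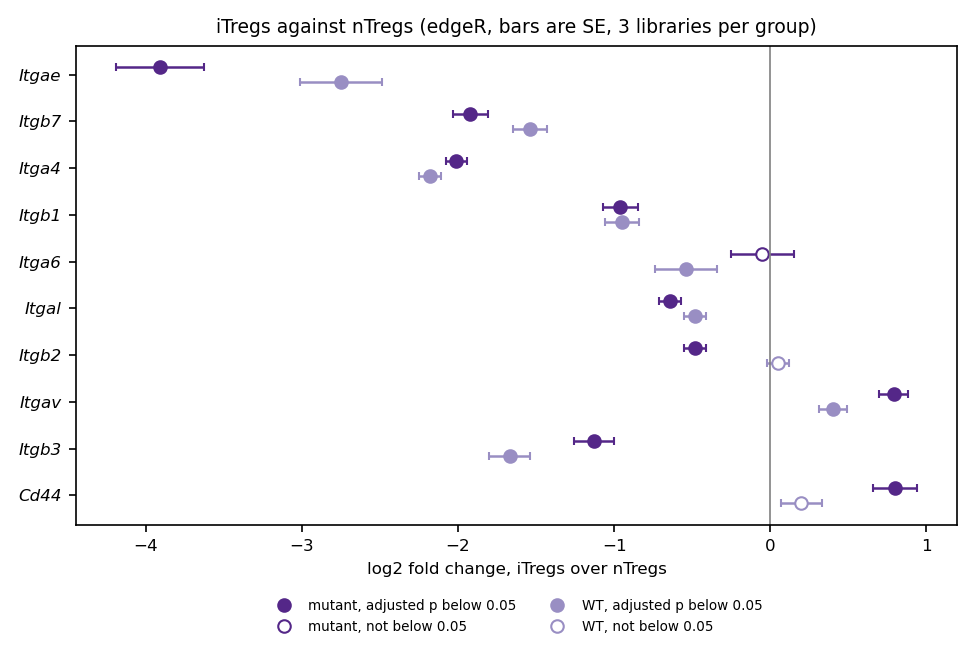
Log2 change of iTregs over nTregs for each of the 10 genes in mutant and in WT mice, with SE bars; filled points have an adjusted p under 0.05. Itgae lies lowest in both genotypes, at -3.91 in mutants and -2.75 in WT, and Itgav lies above 0 in both.

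Proteins that switch integrins on and tie them to actin had 40 genes tested. In iTregs 6 were higher and 11 lower in mutants, with a median log2 change of -0.06, and in nTregs 4 were higher and 14 lower, with a median of -0.14, against 0.04 over all genes tested in each. The background shares of all genes, which hold for the lists that follow too, were 14% higher and 11.4% lower in iTregs, and 19.3% higher and 15.6% lower in nTregs. Talin binds the beta chain tail and opens the receptor. Tln1, its main form in blood cells, fell in iTregs to 274 ± 5.84 CPM in mutants against 353 ± 7.01 CPM in WT (log2 change -0.36 ± 0.05, adjusted p = 0.00135), and in nTregs it stood at 517 ± 15 CPM in mutants and 538 ± 10 CPM in WT. The rarer Tln2 rose in both kinds, to 2.19 ± 0.354 CPM in iTreg mutants against 0.772 ± 0.174 CPM in WT, and to 2.54 ± 0.259 CPM in nTreg mutants against 0.65 ± 0.176 CPM in WT.

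Rasgrp2, the exchange factor that loads Rap1 to activate integrins, fell in iTregs to 13.4 ± 3.63 CPM in mutants against 41.8 ± 6.5 CPM in WT (log2 change -1.64 ± 0.17, adjusted p = 0.000244). Its log2 change in nTregs was -0.47 ± 0.16 (adjusted p = 0.035, 0.0154 to 0.102 with single libraries left out). The Rap1 effector Apbb1ip (RIAM) fell in nTregs to 141 ± 7.52 CPM in mutants against 189 ± 2.75 CPM in WT (-0.43 ± 0.06, adjusted p = 0.000474). Focal adhesion kinase, Ptk2, fell in nTregs by 0.54 ± 0.11 and Krit1, which binds an inhibitor of the Itgb1 tail, by 0.39 ± 0.08. Vinculin, Vcl, which ties talin to actin, rose in iTregs by 0.69 ± 0.13. The counts leaned on single libraries. The 14 lower genes in nTregs were 7 without nTreg WT 1, and the 4 higher were 7 without nTreg mutant 4. In iTregs the 11 lower were 17 without nTreg mutant 1 and 7 without iTreg WT 1 or 2, and the 6 higher were 3 without nTreg WT 2 or 3, iTreg mutant 1 or iTreg WT 1 or 3, and 2 without iTreg mutant 2 or iTreg WT 2.

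CD44 partners and genes of hyaluronan turnover had 23 genes tested. In iTregs 7 were higher and 2 lower in mutants (median log2 change 0.08), and in nTregs 4 were higher and 3 lower (median -0.03). Hmmr, the intracellular hyaluronan-binding protein that is also a mitotic spindle gene, rose in iTregs to 199 ± 16.1 CPM in mutants against 97.6 ± 22.7 CPM in WT, and in nTregs to 61.4 ± 21.8 CPM in mutants against 18.8 ± 2.96 CPM in WT. The cell surface hyaluronidase Cemip2 rose in both, by 0.74 ± 0.14 in iTregs (adjusted p = 0.00371) and 1.09 ± 0.13 in nTregs (adjusted p = 0.000245). Serglycin, Srgn, a proteoglycan of secretory granules that binds CD44, rose by 0.48 ± 0.06 in iTregs (adjusted p = 0.000693). It rose by 0.22 ± 0.06 in nTregs (adjusted p = 0.016, 0.00338 to 0.0975 with single libraries left out). Lower in iTregs were Slc9a3r1, by 0.37 ± 0.08 (adjusted p = 0.00697), and Mmp9, at 0 CPM in mutants against 0.077 ± 0.037 CPM in WT (adjusted p = 0.0389). The fall of Mmp9 in iTregs rests on levels near 0 in both groups. Its adjusted p there was 0.0227 to 0.116 with single libraries left out. Mmp9 also fell in nTregs, to 1.21 ± 0.297 CPM in mutants against 3.18 ± 1.25 CPM in WT (adjusted p = 0.00623). The 2 lower genes in iTregs were 1 without nTreg mutant 2, any iTreg mutant library, iTreg WT 1 or iTreg WT 2.

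The list of TGF-beta signalling and RUNX genes that bear on CD103 had 16 genes tested. In iTregs 2 were higher and 5 lower in mutants (median log2 change -0.17), and in nTregs 3 were higher and 6 lower (median -0.22). The receptor chain Tgfbr2 fell in iTregs to 119 ± 5.89 CPM in mutants against 176 ± 20.6 CPM in WT, and in nTregs to 154 ± 14.2 CPM in mutants against 199 ± 9.16 CPM in WT. The inhibitory Smad7 fell in iTregs by 0.78 ± 0.13 and in nTregs by 0.63 ± 0.12, so both a receptor and an inhibitor of the pathway fell. Smad4, the shared partner of signal-carrying Smads, fell by 0.45 ± 0.07 in nTregs. It fell by 0.21 ± 0.07 in iTregs (adjusted p = 0.0357, 0.00404 to 0.125 with single libraries left out). Lrrc32 (GARP), which holds latent TGF-beta on the Treg surface, fell by 0.80 ± 0.15 in iTregs (adjusted p = 0.00351), and in nTregs it stood at 141 ± 27 CPM in mutants and 136 ± 1.97 CPM in WT. In iTregs the 5 lower genes were 3 without iTreg WT 1 or 2; the 2 higher were 1 without nTreg mutant 4, any nTreg WT library, iTreg mutant 4 or iTreg WT 3, and 0 without iTreg mutant 1 or 2 or iTreg WT 1 or 2.

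Among 10 homing genes that separate naive from experienced T cells, 5 were lower and 1 higher in iTreg mutants (median log2 change -0.33), and 3 were lower and 1 higher in nTreg mutants (median -0.23). S1pr1, the receptor with which T cells leave lymph nodes, fell by 0.63 ± 0.11 in iTregs (adjusted p = 0.00241) and by 0.59 ± 0.11 in nTregs (adjusted p = 0.00169). Klf2, a transcription factor that drives S1pr1, fell in iTregs to 19.6 ± 3.93 CPM in mutants against 47.1 ± 4.81 CPM in WT (adjusted p = 0.000531), and in nTregs it stood at 49.6 ± 8.27 CPM in mutants and 62.1 ± 6.23 CPM in WT (adjusted p = 0.112). Selplg, the ligand of P-selectin, fell by 0.41 ± 0.07 in iTregs. The chemokine receptor Cxcr3 rose in nTregs to 49.2 ± 20.2 CPM in mutants against 22.7 ± 4.36 CPM in WT. Another chemokine receptor, Ccr9, fell in nTregs to 10.1 ± 5.25 CPM in mutants against 21.4 ± 3.11 CPM in WT. Its adjusted p was 0.0143, and 0.0029 to 0.053 with single libraries left out. The 1 higher gene in nTregs was 2 without nTreg mutant 1, and the other counts of this list moved by no more than 1.5 times with any single library left out.

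The other 14 integrin chains tested had 2 higher and 1 lower in iTreg mutants (median 0.23) and 1 higher and 4 lower in nTreg mutants (median -0.11). Itga10, a collagen receptor chain in other tissues, fell in nTregs to 3.52 ± 0.908 CPM in mutants against 6.86 ± 1.07 CPM in WT. The 1 that was higher in nTregs, Itgax (CD11c), is a chain of dendritic and NK cells. Its level spread widely over mutants, at 26.1 ± 30.9 CPM against 3.51 ± 0.53 CPM in WT. Its log2 change of 2.89 ± 0.66 was 1.26 without nTreg mutant 1. That library had the highest summed CD8 T and NK cell markers but, at 16.2 CPM, the lowest summed myeloid markers of the nTreg libraries. The part of such cells in the Itgax level was not tested. In nTregs the 4 lower were 2 without nTreg mutant 1 or nTreg WT 3 and 1 without nTreg WT 1 or 2, and the 1 higher was 2 without nTreg mutant 2 or 4. In iTregs the 2 higher were 1 without iTreg mutant 1 or 4 and 0 without iTreg WT 1 or 2, and the 1 lower was 0 without iTreg mutant 1 or 4 or iTreg WT 1 or 2.

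Integrin ligand genes had 21 tested in these libraries. In iTreg mutants 6 were higher and 1 lower (median 0.42), and in nTreg mutants 5 were higher and 2 lower (median 0.51). Which cells of the nTreg libraries these reads came from was not tested. The laminin chain Lama5 rose in nTregs to 4.01 ± 0.728 CPM in mutants against 1.78 ± 0.0432 CPM in WT, and osteopontin, Spp1, a cytokine-like ligand of several integrins, to 2.08 ± 0.188 CPM in mutants against 0.581 ± 0.0889 CPM in WT. Lama5 rose in iTregs by 0.49 ± 0.15 (adjusted p = 0.0331, 0.0183 to 0.126 with single libraries left out). In iTregs Spp1 rose too (adjusted p = 5e-04), with 42 counts over the 3 mutant libraries and 1 count over the 3 WT libraries, a ratio per counted read of 42.1 with a 95% exact interval of 7.15 to 1700 that covers counting error only. The LFA-1 ligand Icam2 fell in nTregs by 0.45 ± 0.10. It fell in iTregs by 0.33 ± 0.11 (adjusted p = 0.0375, 0.0135 to 0.155 with single libraries left out). Cdh1, the E-cadherin that CD103 binds, rose in nTregs to 1.18 ± 0.613 CPM in mutants against 0.218 ± 0.0261 CPM in WT (adjusted p = 0.00297). Cdh1 stood in iTregs at 1.01 ± 0.454 CPM in mutants and 0.782 ± 0.214 CPM in WT (adjusted p = 0.558). In nTregs the 5 higher were 8 without nTreg mutant 1 and 3 without nTreg WT 1, and the 2 lower were 1 without nTreg mutant 2 or 4 or nTreg WT 1. In iTregs the 6 higher were 3 without iTreg mutant 1 or iTreg WT 1 or 2, and the 1 lower was 3 without nTreg mutant 1 and 0 without nTreg WT 1, iTreg mutant 1 or 2 or iTreg WT 1 or 2.

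Tetraspanins and other proteins that sit beside integrins had 14 genes tested, 2 higher and 1 lower in iTreg mutants (median 0.19) and 3 higher and 1 lower in nTreg mutants (median 0.02). Cd226, a receptor that associates with LFA-1, rose in iTregs to 84.8 ± 9.47 CPM in mutants against 51 ± 4.08 CPM in WT (adjusted p = 0.000961). The tetraspanin Cd82 rose in nTregs to 291 ± 37.8 CPM in mutants against 170 ± 4.14 CPM in WT, and in iTregs it stood at 149 ± 48.6 CPM in mutants and 155 ± 18.4 CPM in WT. In nTregs the 3 higher were 1 without any nTreg WT library, and the 1 lower was 2 without nTreg mutant 1. In iTregs the 2 higher were 1 without iTreg mutant 4 or iTreg WT 1 or 2, and the 1 lower was 2 without nTreg mutant 1 or iTreg mutant 4 and 0 without iTreg mutant 1 or iTreg WT 1 or 2.

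Across the 12 libraries, the genes whose log2(CPM + 1) values ran most like a member's were taken from 9332 protein-coding genes with a mean of at least 5 CPM, as a description in which the libraries of a group share its level. For Itgb1 they were Slc22a15 (Pearson r 0.990), Asap2 (0.979) and Asah2 (0.978). For Cd44 they were Pcyt1a (0.974), Fam124b (0.970) and Ccr6 (0.965), and for Itgae they were Tiam1 (0.992), Susd2 (0.989) and Rab43 (0.987). For Itgb7 they were Rab37 (0.998), Ddx60 (0.996) and Slc46a3 (0.995).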

How the data were processed

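The data were gene counts of 12 stranded mRNA libraries. Per the labels' protocols, the kits were NucleoSpin RNA for extraction and TruSeq Stranded mRNA for library preparation. The deposited counts came from featureCounts 1.5.2 with Ensembl release 87 annotation of GRCm38, strand-specific, with multi-mapping reads counted, per the file headers. The tools bcl2fastq 2.18.0.12, STAR 2.5.2b and Subread 1.5.2 are named per the submitters' processing notes, and read trimming is not given in the sources used here. Counting of multi-mapping reads can add reads from near-identical copies to a gene.

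Gene IDs were matched to symbols for 49326 of 49671 genes. Totals lay between 28707579 and 39886130 counts, and every one of the 10 genes had counts in all 12 libraries, so the spread between libraries and not counting error limits the precision. Genes were filtered with edgeR's filterByExpr, scaled by TMM, and tested with edgeR 4.0.16 (R 4.3.3, limma 3.58.1) by the quasi-likelihood test in a single fit of the 4 groups with 8 residual degrees of freedom, with Benjamini-Hochberg adjustment over 17977 genes in each of 5 comparisons: mutant against WT in iTregs and in nTregs, the difference of both, and iTregs against nTregs in mutant and in WT mice. Comparisons share libraries: both kinds of cell enter the difference, and each WT or mutant group enters 2 of the simple comparisons. Standard errors and 95% intervals come from the same fit and are not adjusted. Levels per kilobase divide CPM by the deposited exon length. The script was tested on simulated data.

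The members and gene lists were chosen with earlier results of these data known. The rule for named genes was all 10 members, Gclc and Foxp3 as checks of the labels, from each list up to 4 genes with the smallest adjusted p that passed in each mutant against WT comparison (1 where none passed), and the 3 genes most like each of Itgae, Itgb1, Itgb7 and Cd44. The text describes those of them with a clear role. A gene that the rule also names is not reported here. Nov, Cyr61 and Tmem2 were matched as Ccn3, Ccn1 and Cemip2 through RefSeq synonyms. The fit was repeated with DESeq2 1.42.0, with RLE scaling or library sizes only, without the filter or with at least 1 CPM in 3 libraries required, on the 2 groups of a comparison only, with a block for replicate number, and without each library in turn.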

Additional observations from a re-analysis of the deposited data

Results flagged for a closer look

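The change of mutant over WT differed between the 2 kinds of Treg in 2 of the 10 genes, by the test of the difference itself. Over all genes tested the share was 13.3%, and nothing is read from this count. The change in iTregs minus that in nTregs was -1.16 ± 0.36 on the log2 scale in Itgae (adjusted p = 0.0496, edgeR quasi-likelihood test) and -0.54 ± 0.10 in Itgb2 (adjusted p = 0.00789). The difference in Itgb2 held with any single library left out, and that in Itgae was lost without most of them, as given with its values.

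The same test passed for Gclc (-0.65 ± 0.10) and for several genes of the lists, and these log2 differences held with any single library left out: Itgb8 2.36 ± 0.50, Lamc1 1.03 ± 0.22, Ltbp1 2.34 ± 0.55, Apbb1ip 0.55 ± 0.09, Rasgrp2 -1.16 ± 0.23 and Klf2 -0.94 ± 0.21. The list genes had been picked for a small adjusted p within 1 kind of cell, which favours a difference between kinds. How many of them passed is therefore not read as a result. Of all genes tested, 13.3% passed this test. Itgb8, Lamc1 and Ltbp1 were chosen by the rule for named genes and not described above. In iTregs Itgb8 stood at only 0.874 ± 0.418 CPM in mutants and 0.246 ± 0.0659 CPM in WT. Ltbp1 stood there at 0.272 ± 0.0753 CPM in mutants and 0.151 ± 0.0353 CPM in WT. The differences of Itgb8 and Ltbp1 therefore rest on low counts in iTregs. Other differences passed but were lost without at least 1 library. Spp1 (3.18 ± 0.75, adjusted p = 0.0179), whose fitted value rests on 1 count over the iTreg WT libraries, was lost without iTreg WT 1 (0.0558) or 2 (0.0596). Krit1 (0.49 ± 0.11, adjusted p = 0.0177) was lost without nTreg WT 1 (0.0519) or 2 (0.0552), Ptk2 (0.62 ± 0.15, adjusted p = 0.0188) without nTreg WT 1 (0.0538) or iTreg mutant 2 (0.0507), and Lrrc32 (-0.86 ± 0.21, adjusted p = 0.0196) without nTreg WT 2 (0.0531). Itgam (-2.47 ± 0.61, adjusted p = 0.0213), a chain of myeloid and NK cells, was lost without nTreg WT 1 or 2, iTreg mutant 1 or iTreg WT 1. Tln1 (-0.31 ± 0.08, adjusted p = 0.0237) was lost without nTreg mutant 2, nTreg WT 1 or 2, iTreg mutant 1, or iTreg WT 1 or 2. Selplg (-0.38 ± 0.10, adjusted p = 0.0303) was lost without nTreg WT 1 or 2, iTreg mutant 2 or any iTreg WT library. Cd82 (-0.84 ± 0.25, adjusted p = 0.0449) was lost without any library but nTreg mutant 1, nTreg mutant 4 and iTreg mutant 4, and Cd226 (0.47 ± 0.14, adjusted p = 0.0487) without any library but nTreg mutant 1, nTreg WT 3 and iTreg WT 3.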

How the results depend on the processing

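Over the 5 comparisons, no value of the 10 genes that passed in the reported fit or in the other fit changed sign. Values that passed in neither could change sign. Cd44 in nTregs, for example, ran between -0.08 and 0.16 with single libraries left out. Of 340 values from other settings, 312 kept their side of the threshold, 7 no longer passed and 21 newly passed. Of 600 values with a single library left out, 565 kept their side, 21 no longer passed and 14 newly passed.

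The 2 members higher in nTregs were 1 with RLE scaling, DESeq2, the compared libraries alone and the replicate block, each time by the loss of Itgae (adjusted p 0.0513, 0.0797, 0.0542 and 0.158). The 2 lower in iTregs were 4 with library size alone, at least 1 CPM in 3 libraries, and the compared libraries alone, where Itga4 and Itga6 also passed. In the difference, members higher and lower were 1 and 1 with RLE scaling, and the members higher were 2 with no filter, 3 with DESeq2 and 2 with the replicate block, where Itgb3 (0.0194) and Itgav (0.0466) passed.

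Among all genes, those higher in iTreg mutants were 1606 with library size alone (2517 in the reported fit). Higher and lower in the difference were 518 and 2393 with library size alone (1101 and 1291). The filter of 1 CPM left 45% of the called genes higher in iTregs and 34.4% in the difference. With the replicate block, 1677 genes were higher and 1359 lower in iTregs, and 650 were higher and 821 lower in the difference. No label says what a shared replicate number means. Deviations of same-numbered libraries from their group means correlated between -0.05 and 0.06 over 3 pairs of mutant iTregs and nTregs. Over 3 pairs of WT they correlated between -0.15 and 0.04. So few pairs cannot decide whether same-numbered libraries were paired. The replicate block also moved Itgav in nTregs to an adjusted p of 0.0449, Itgb7 in iTregs to an adjusted p of 0.0535 and Itga6 between WT iTregs and nTregs to 0.0512.

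With single libraries left out, all genes higher and lower in mutants ranged between 773 and 3164 and between 997 and 3096 in iTregs, and between 2485 and 3610 and between 2003 and 3056 in nTregs. In the difference they ranged between 494 and 1310 higher and between 610 and 2146 lower. Between iTregs and nTregs they ranged between 5508 and 6028 higher and 5802 and 7195 lower in mutants, and between 5609 and 6382 higher and 6027 and 6895 lower in WT. Members higher and lower ranged between 2 and 2 and between 2 and 4 in iTregs, between 1 and 2 and between 3 and 4 in nTregs, and between 0 and 2 and between 1 and 3 in the difference. Between iTregs and nTregs, members higher and lower were 2 and 7 throughout in mutants, and ranged between 1 and 2 and between 6 and 7 in WT. The cause of these shifts was not tested.

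With 3 libraries per group, a change that missed the threshold is given with its interval and is not shown to be absent. Transcripts were measured and not surface receptors, and the share of each isoform of Cd44 was not analysed here.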
